A study of Homo sapiens with 6 samples.

Results

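The 37 genes described here encode proteins of the centromere, the kinetochore and the spindle assembly checkpoint. They were taken by symbol from the deposited count table of 36884 genes. All 37 symbols were found, with 1 symbol (SKA1) present on 2 rows, of which the row of higher mean count was used. All 37 genes passed the filter on low counts, which left 13431 genes for testing. The libraries came from RPE1, a human line from retinal pigment epithelium made immortal with telomerase. In all 6 libraries, controls included, the cells carried LATS1 and LATS2 inactivated by CRISPR-Cas9, the Hippo kinases that restrain YAP and TAZ. The siCon group (3 libraries) received control siRNA and the siMK5 group (3 libraries) received siRNA against MK5, the kinase encoded by MAPKAPK5, and RNA was taken after 48 h. The 3 libraries of a group are called biological replicates by the submitters, with nothing said of separate cultures, so p-values measure the spread between these libraries. The sources used here do not say whether the LATS1/2-null cells are a single clone.

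The kinetochore is the protein assembly that joins a chromosome to spindle microtubules. It is built on centromeric nucleosomes that hold CENP-A in place of histone H3, through an inner layer of CENP proteins (the constitutive centromere-associated network) and an outer layer that grips the microtubule. Until every kinetochore is attached, the spindle checkpoint keeps CDC20 from switching on the anaphase-promoting complex. Many of these genes are transcribed mainly in late S, G2 and M phase, so their levels in a culture also follow the share of cells that are cycling.

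Levels are given below in CPM, the count scaled to the library's size after TMM normalization, and always in the order of replicates 1, 2 and 3. MAPKAPK5, the target of the siRNA, had 35.6, 29.05 and 31.3 CPM with control siRNA and 17.4, 14.1 and 16.2 CPM with MK5 siRNA, a log2 change of −1.01 ± 0.14 (SE; edgeR adjusted p = 0.00169). Library totals lay between 27188074 and 28236773 counts. Some cell type markers moved too. KRT8 (−0.83 ± 0.18) and KRT18 (−0.74 ± 0.13), keratins of simple epithelia, and MITF (−1.09 ± 0.14), a factor of the pigment epithelium, fell, and COL1A1 (1.83 ± 0.35), a collagen of mesenchymal cells, rose (edgeR adjusted p = 0.0104, 0.00363, 0.00114 and 0.00605). KRT19, a further keratin, had 54 counts over all libraries and did not pass (0.44 ± 0.53). Among pigment epithelium markers, PMEL also fell (−1.89 ± 0.27, edgeR adjusted p = 0.00189). OTX2 (0.10 ± 0.11), BEST1 (0.01 ± 0.37) and SERPINF1 (−0.53 ± 0.55) did not pass. RPE65, RLBP1 and TYR, markers of mature pigment epithelium, had 3, 2 and 2 counts over all libraries together. COL1A1 was at 39.7, 67.7 and 53.1 CPM in the controls and 294, 144 and 131 CPM after MK5 siRNA. The other mesenchymal markers did not rise with it. VIM (−0.12 ± 0.14), CDH2 (−0.41 ± 0.18) and FN1 (0.19 ± 0.15) did not pass, and COL1A2 had 26 counts over all libraries. The endothelial and epithelial adhesion genes PECAM1 and EPCAM had 0 counts, and PTPRC, the pan-leukocyte marker, had 27. CD34, a marker of blood progenitors and endothelium, was at 2.87, 1.401 and 1.902 CPM in the controls and at or under 0.135 CPM after MK5 siRNA. The part of these shifts in the results below was not tested.

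Transcripts of the kinetochore and checkpoint genes were lower after MK5 siRNA almost throughout. Of the 37 genes, 33 fell at a Benjamini-Hochberg adjusted p below 0.05 over all genes tested (edgeR quasi-likelihood test), 0 rose and 4 did not pass. Among all genes tested, 23.7% fell and 22.5% rose. No member's fitted change was positive with edgeR or with DESeq2, so none could pass as a rise at any p. The fitted log2 fold change of MK5 siRNA over control was negative in all 37, with a median of −1.36, beside a median of 0.00 over all genes tested. A total of 27 members fell by at least 2-fold, as did 11.5% of all genes tested. In 34 of the 37, every MK5 siRNA library lay below every control library, as in 29.8% of all genes tested. The libraries hold bulk RNA, in which fewer cells in the phases that transcribe these genes and less RNA of them per cell cannot be told apart. Fold changes below are log2 ± the standard error of the edgeR fit with 3 libraries a group.

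**Figure D1:**
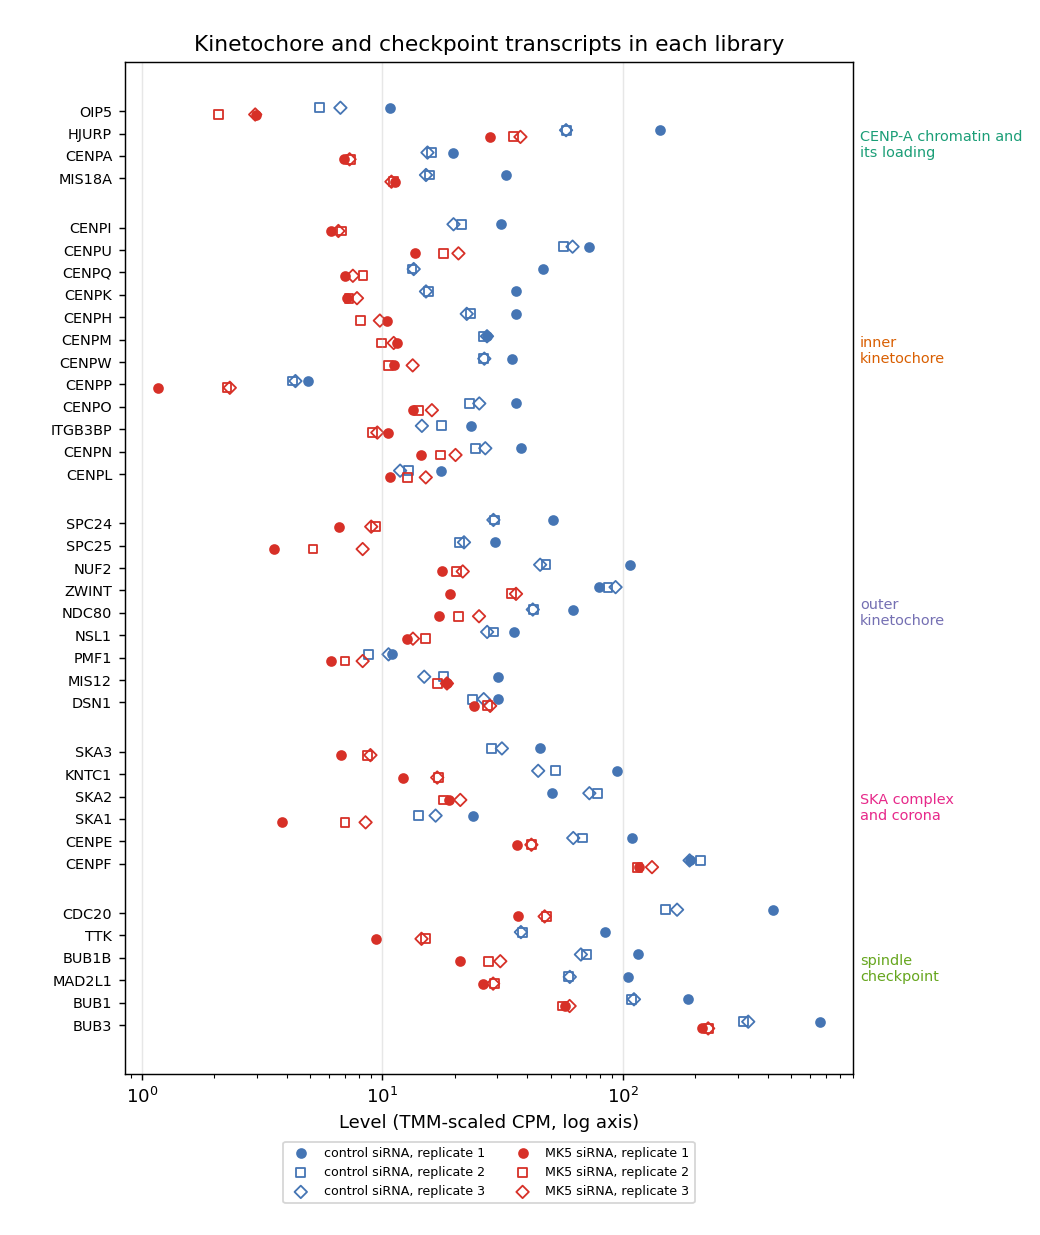
Level of each of the 37 transcripts in the 6 libraries (TMM-scaled CPM, log axis), grouped by role and ordered by fitted change within a role. Blue marks are control siRNA and red marks MK5 siRNA, with replicate 1 filled; the groups overlap in CENPL, MIS12 and DSN1, and the filled blue mark is the highest control in 33 of 37 genes.

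Control replicate 1 stood apart from control replicates 2 and 3 in these genes. It was the highest of the 3 controls in 33 of 37 members, against 45.4% of all genes tested, and the median ratio of replicate 1 to the mean of replicates 2 and 3 was 1.51 in the members and 0.994 over all genes tested. The ratio ran from 0.675 in SKA2 to 3.48 in CENPQ and was at least 2 in 8 members. MK5 siRNA replicate 1 leaned the other way and was the lowest of its group in 27 of 37 members (41.9% of all genes tested), with a median ratio of 0.871. The summed level of all members was 3123, 1861 and 1865 CPM with control siRNA and 852, 947 and 1003 CPM with MK5 siRNA. The summed markers of proliferating cells moved with it. The sum of MKI67, TOP2A, CCNB1, PCNA and MCM2 was 2110, 1206 and 1209 CPM in the controls and 496, 538 and 578 CPM after MK5 siRNA, and all 5 genes fell. Control replicate 1 was the highest control in 4 of the 5. In PCNA it was the lowest, with controls at 217, 222 and 243 CPM. Of 3 genes of resting cells, CCNG2 rose and CDKN1B and CDKN1C did not pass with all libraries. The sum of the 3 genes was 213, 141 and 120 CPM in the controls and 179, 153 and 149 CPM after MK5 siRNA. CDKN1C was at 7.70, 1.07 and 0.878 CPM in the controls and 10.3, 6.40 and 5.99 CPM after MK5 siRNA. Without control replicate 1, CDKN1C rose by 2.96 (edgeR adjusted p = 0.000141). CCNG2 also rose then (0.56), and CDKN1B did not pass (0.04, edgeR adjusted p = 0.768). The part of the cycling share in the members' fall was not tested.

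Without control replicate 1, all 33 falls still passed, and without replicate 1 of both groups all 33 passed and PMF1 was added. More genes passed in these settings at large. Of all genes tested, 23.7% fell with all libraries, 32.1% without control replicate 1 and 37.8% without replicate 1 of both groups. PMF1 passed with a smaller change (−0.34) than with all libraries (−0.50). Most of the members' changes were smaller. The members' median was −1.12 without control replicate 1 and −1.02 without replicate 1 of both groups, and the number of falls of at least 2-fold among the 33 was 22 and 19. None of the 6 members that fell by at least 4-fold with all libraries did so without control replicate 1. Among all 13431 genes tested with all libraries, 366 fell by at least 4-fold. The shares of all genes with 2-fold or 4-fold falls on leaving out replicate 1 were not computed. The log2 change of HJURP, MIS18A, CENPK, CENPQ and BUB3 was over 1.5 times smaller without control replicate 1. Without replicate 1 of both groups this also held for CENPN, NUF2, SKA1, CENPE and TTK. The median change within replicate pairs 1, 2 and 3, on CPM with 0.5 added, was −1.70, −1.01 and −0.96. Over all genes tested it was 0.02, 0.00 and 0.00. In all 3 pairs 34 members were lower, the same 34 in which every MK5 siRNA library lay below every control library. That held in 29.8% of all genes tested, and the share of all genes lower in all 3 pairs was not computed. With the replicate number as a block, 28 members fell, and HJURP, MIS18A, CENPN, CENPQ and BUB3 no longer passed (edgeR adjusted p from 0.0502 to 0.0681).

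**Figure D2:**
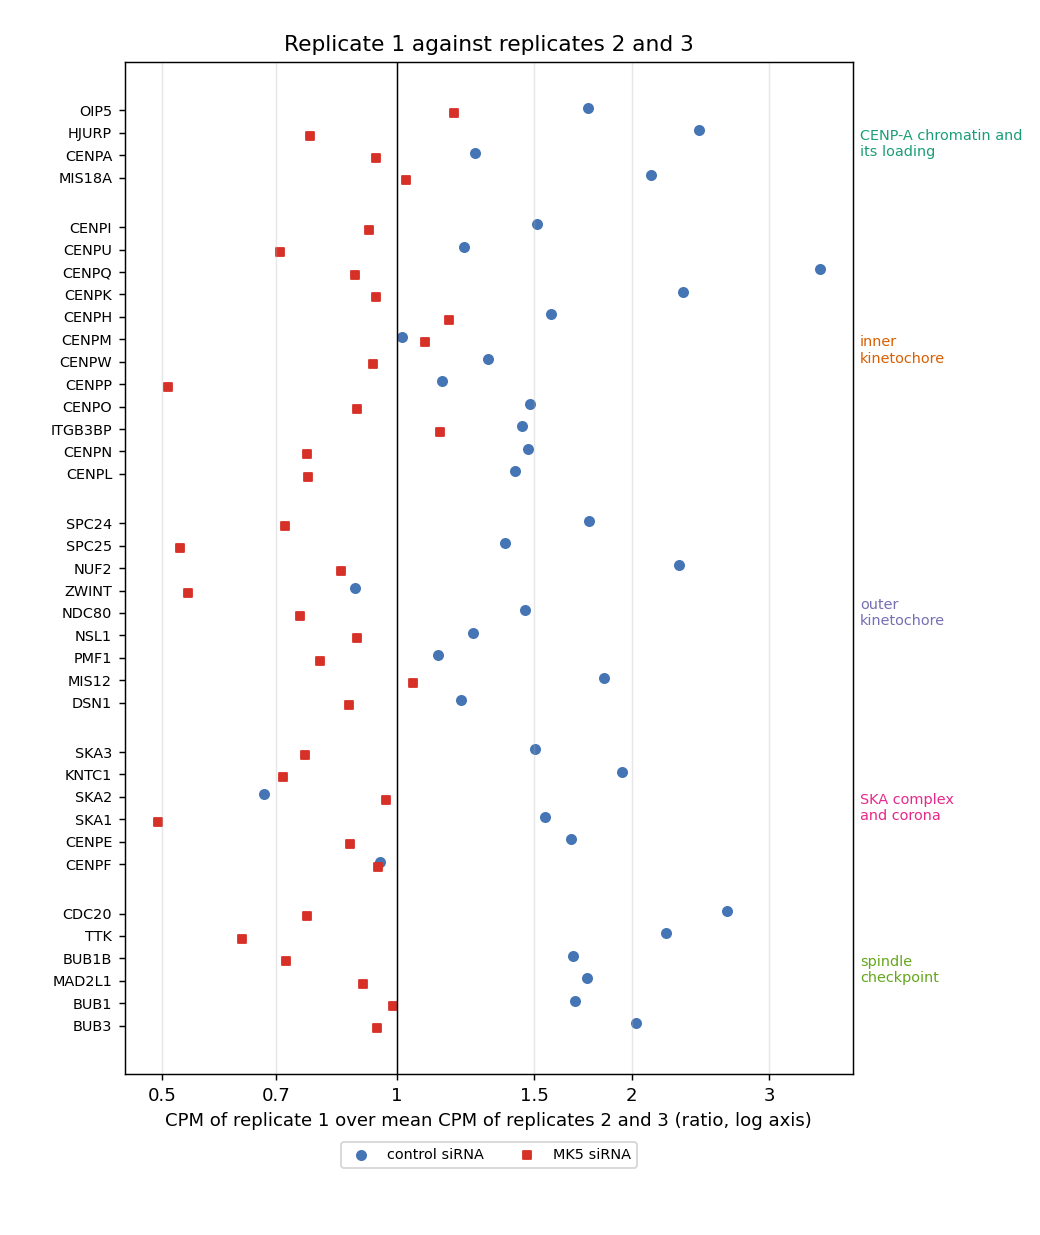
Ratio of the CPM of replicate 1 to the mean CPM of replicates 2 and 3 (log axis) for each member, control siRNA in blue circles and MK5 siRNA in red squares. Most control ratios lie above 1, up to 3.48 in CENPQ, while SKA2, ZWINT and CENPF lie below 1.

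Since the members moved together, their promoters were searched for short words that cell cycle factors are known to bind. The words were the CHR element (TTTGAA or TTCGAA), which the MuvB core contacts through LIN54, the CCAAT box (CCAAT), bound by NF-Y, and an E2F site (TTTGGCGC, TTTCCCGC, TTTCGCGC or TTTGCCGC). Both strands were read, and TTCGAA is its own reverse complement and was counted once a place. RefSeq promoters of GRCh38.p14, from 250 bases before to 50 after a gene's start, were at hand for 30 of the 37 members. A CHR word was in 17 of the 30 (56.7%), against 16.4% of all promoters in the table and 15.7% of the tested genes with one. CCAAT was in 19 (63.3%), against 34.6% and 43.3%. An E2F word was in 4 (13.3%), against 3.31% and 6.61%. All 17 members with a CHR word fell, with a median of −1.41. Of the 13 without one, 10 fell, with a median of −1.23, and the other 3 were MIS12, DSN1 and PMF1. Of the 5 with none of the words, CENPE, CENPI, ITGB3BP and NSL1 fell and DSN1 did not pass. A match is a string of letters in a window and not a shown binding site. The last 120 bases before the start are shown for CDC20, CENPA, BUB1B and ZWINT, which fell and hold a CHR word there, and for MIS12 and DSN1, which did not pass and hold none. None of the 10 members that fell without a CHR word is among those shown, so the choice is no measure of a link. Capitals mark CHR, CCAAT and E2F words on either strand, and a CHR word on the other strand reads TTCAAA.
CDC20 (chr1:43358861-43358980, plus strand): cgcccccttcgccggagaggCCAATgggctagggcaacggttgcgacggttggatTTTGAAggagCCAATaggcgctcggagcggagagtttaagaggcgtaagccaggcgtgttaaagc
CENPA (chr2:26785936-26786055, plus strand): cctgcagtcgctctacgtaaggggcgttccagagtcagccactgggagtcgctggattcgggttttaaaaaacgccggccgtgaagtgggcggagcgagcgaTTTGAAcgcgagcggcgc
BUB1B (chr15:40160949-40161068, plus strand): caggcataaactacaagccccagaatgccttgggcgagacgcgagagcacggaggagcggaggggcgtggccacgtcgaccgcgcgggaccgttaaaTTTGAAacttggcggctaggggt
ZWINT (chr10:56361260-56361379, minus strand): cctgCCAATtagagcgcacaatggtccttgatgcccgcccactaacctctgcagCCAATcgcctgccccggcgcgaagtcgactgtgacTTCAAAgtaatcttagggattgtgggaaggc
MIS12 (chr17:5486254-5486373, plus strand): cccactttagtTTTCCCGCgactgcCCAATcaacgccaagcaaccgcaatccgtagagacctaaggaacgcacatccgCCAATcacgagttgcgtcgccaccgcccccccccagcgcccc
DSN1 (chr20:36773764-36773883, minus strand): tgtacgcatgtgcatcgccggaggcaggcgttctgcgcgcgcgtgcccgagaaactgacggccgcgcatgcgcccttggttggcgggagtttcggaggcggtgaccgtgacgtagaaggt

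In CDC20 the CHR word begins 65 bases before the start, between CCAAT boxes at −100 and −55. In CENPA it begins at −18 and in BUB1B at −23, with no CCAAT box in the stretch shown. ZWINT, which has several starts in the table, carries the CHR word on the other strand, at −31 from the start shown, with CCAAT boxes at −116 and −66. The MIS12 stretch, also from 1 of several starts in the table, holds an E2F word at −109 and CCAAT boxes at −95 and −42. The DSN1 stretch holds none of the words searched.

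CENP-A chromatin and the proteins that load it were lower in all 4 members, with a median of −1.30, or −0.95 without control replicate 1. With the replicate block, 2 of the 4 passed. CENPA (ENSG00000115163) encodes the centromeric histone H3 variant that marks where a kinetochore forms. It was at 19.7, 15.96 and 15.4 CPM in the controls and 6.896, 7.37 and 7.31 CPM after MK5 siRNA. The groups did not overlap, the MK5 siRNA libraries lay within a narrow band, and the change was −1.24 ± 0.15 (edgeR adjusted p = 0.00117). HJURP (ENSG00000123485), the chaperone that deposits CENP-A after mitosis, was at 142, 58.4 and 57.97 CPM in the controls and 28.1, 35.1 and 37.5 CPM after MK5 siRNA. Control replicate 1 was far above the other controls, but even they lay above every MK5 siRNA library. Its change was −1.36 ± 0.37 (edgeR adjusted p = 0.0213), and −0.79 without control replicate 1. HJURP did not pass with the replicate block (edgeR adjusted p = 0.0602) or without any single MK5 siRNA library (edgeR adjusted p from 0.0575 to 0.0857).

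MIS18A and OIP5 form the Mis18 complex that licenses the centromere for new CENP-A. MIS18A (ENSG00000159055) was at 32.6, 15.7 and 15.2 CPM in the controls and 11.3, 11.1 and 10.9 CPM after MK5 siRNA, a change of −0.93 ± 0.31 (edgeR adjusted p = 0.0438). Control replicate 1 was again the high one, and the change was −0.47 without it (edgeR adjusted p = 0.00536). MIS18A had the highest adjusted p of the 33 falls. It did not pass without any single MK5 siRNA library (edgeR adjusted p from 0.114 to 0.119), with the replicate block (0.0558) or with library totals in place of TMM (−0.81, edgeR adjusted p = 0.0529). OIP5 (ENSG00000104147), the lowest of the 4, was at 10.7, 5.49 and 6.69 CPM in the controls and 2.99, 2.09 and 2.96 CPM after MK5 siRNA, a change of −1.51 ± 0.31 (edgeR adjusted p = 0.00719). In the GENCODE 29 gene models 38.03% of the exon bases of OIP5 also belong to OIP5-AS1 on the other strand, and the sources used here do not give the strand setting of the counting. Whether reads of the 2 genes were told apart there is therefore not known.

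Of 12 inner kinetochore genes, 11 fell and CENPL did not pass, with a median of −1.31. CENPI (ENSG00000102384), a large helical-repeat subunit that sits with CENP-H and CENP-K, had the most negative fit, though within its error of CENPU. It was at 31.03, 21.3 and 19.8 CPM in the controls and 6.13, 6.75 and 6.56 CPM after MK5 siRNA, so that all MK5 siRNA libraries were well under the lowest control, and its change was −1.89 ± 0.20 (edgeR adjusted p = 0.000748). Its partners CENPH and CENPK changed by −1.53 ± 0.22 and −1.58 ± 0.35. CENPM, the small GTPase-like subunit of the same branch, had the least spread among controls of the inner kinetochore, at 27.1, 26.2 and 27.21 CPM in the controls and 11.5, 9.91 and 11.1 CPM after MK5 siRNA. Control replicate 1 did not stand out in CENPM, and its change of −1.31 ± 0.12 had the lowest adjusted p of all members (edgeR adjusted p = 0.000443).

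CENPU, CENPQ, CENPO, CENPP and ITGB3BP (CENP-R) encode the CENP-O branch, which binds the outer layer and recruits PLK1. CENPU (ENSG00000151725) was the most counted inner kinetochore transcript, at 72.03, 56.4 and 61.7 CPM in the controls and 13.7, 17.98 and 20.7 CPM after MK5 siRNA, a change of −1.86 ± 0.18 (edgeR adjusted p = 0.000538). Without control replicate 1, CENPU (−1.75) lay below CENPI (−1.66). CENPQ (ENSG00000031691) was at 46.6, 13.3 and 13.5 CPM in the controls and 7.01, 8.31 and 7.54 CPM after MK5 siRNA. It had the highest ratio of any member between control replicate 1 and the other controls, and its change was −1.68 ± 0.51 with all libraries (edgeR adjusted p = 0.0316) and −0.81 without control replicate 1. It did not pass without any single one of the MK5 siRNA libraries (edgeR adjusted p from 0.0838 to 0.106) or with the replicate block (0.0681). CENPO, CENPP and ITGB3BP changed by −0.95 ± 0.19, −1.23 ± 0.29 and −0.92 ± 0.20. CENPP was the least counted member, at 4.904, 4.24 and 4.35 CPM in the controls and 1.17, 2.26 and 2.32 CPM after MK5 siRNA, and 37.97% of its exon bases overlap IPPK on the other strand. For CENPO, 27.0% overlap ADCY3 in the same way.

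CENPL and CENPN form a pair that touches the CENP-A nucleosome, yet their transcripts differed in outcome. CENPN changed by −0.77 ± 0.21 (edgeR adjusted p = 0.0212) but missed the threshold on leaving out MK5 siRNA replicate 1 or 2 (edgeR adjusted p = 0.0748 and 0.0743) and with the replicate block (0.0543). In its gene model 12.8% of exon bases overlap CMC2 on the other strand. CENPL (ENSG00000120334) was at 17.5, 12.8 and 11.9 CPM in the controls and 10.7, 12.7 and 15.1 CPM after MK5 siRNA. Its groups overlapped, with the highest value in control replicate 1 and the lowest in MK5 siRNA replicate 1. The change of −0.13 ± 0.21 did not pass (edgeR adjusted p = 0.64, 95% interval −0.62 to 0.37), and it was 0.18 without replicate 1 of both groups. Whether CENPL and CENPN differ in their change was not tested. CENPW, the histone-fold subunit that pairs with CENP-T, changed by −1.31 ± 0.17 (edgeR adjusted p = 0.00128).

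Of 9 outer kinetochore genes, 6 fell and 3 did not pass, with a median of −1.21. The 3 were all of the MIS12 complex. All 4 subunits of the NDC80 complex, the rod that binds the microtubule, were lower. SPC24 (ENSG00000161888) and SPC25 (ENSG00000152253), the end of the rod that docks on the kinetochore, changed most. SPC24 was at 51.3, 29.3 and 28.9 CPM in the controls and 6.604, 9.39 and 8.99 CPM after MK5 siRNA, a change of −2.13 ± 0.28 (edgeR adjusted p = 0.00135). SPC25 was at 29.5, 20.98 and 21.8 CPM in the controls and 3.54, 5.15 and 8.28 CPM after MK5 siRNA, a change of −2.09 ± 0.32 (edgeR adjusted p = 0.00252). In both genes every MK5 siRNA library was under 50% of the lowest control. NUF2 and NDC80, the microtubule-binding end, changed by −1.75 ± 0.34 and −1.21 ± 0.21 (edgeR adjusted p = 0.00644 and 0.00396). NDC80 was at 61.7, 42.4 and 42.2 CPM in the controls and 17.3, 20.8 and 25.2 CPM after MK5 siRNA, with no overlap.

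The MIS12 complex, which links the inner kinetochore to the NDC80 complex, held 1 gene that fell (NSL1) and 3 that did not pass. Whether its changes differ from those of the NDC80 complex was not tested. DSN1 (ENSG00000149636) was at 30.2, 23.6 and 26.4 CPM in the controls and 24.04, 27.3 and 28.04 CPM after MK5 siRNA. The groups lay on top of each other, and the change of −0.01 ± 0.14 had a 95% interval of −0.34 to 0.31 (edgeR adjusted p = 0.9403). MIS12 (ENSG00000167842) was at 30.3, 17.99 and 14.9 CPM in the controls and 18.6, 16.9 and 18.5 CPM after MK5 siRNA, where only control replicate 1 lay above the MK5 siRNA libraries. Its change of −0.23 ± 0.26 did not pass (edgeR adjusted p = 0.508, 95% interval −0.85 to 0.39). The sign of both changes turned without control replicate 1, to 0.088 in DSN1 and 0.14 in MIS12, and neither passed then (edgeR adjusted p = 0.493 and 0.346).

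The other MIS12 complex subunits, PMF1 and NSL1, had no MK5 siRNA library as high as the lowest control. PMF1 (ENSG00000160783) was at 10.9, 8.74 and 10.6 CPM in the controls and 6.09, 6.99 and 8.28 CPM after MK5 siRNA, but its change of −0.50 ± 0.18 did not pass (edgeR adjusted p = 0.0614, 95% interval −0.94 to −0.07). It passed without replicate 1 of both groups (−0.34, edgeR adjusted p = 0.0220) and in DESeq2 (−0.51, adjusted p = 0.0286). In the gene models 23.3% of its exon bases belong to the readthrough gene PMF1-BGLAP as well, so its counts are uncertain. NSL1 (ENSG00000117697) was at 35.1, 28.9 and 27.25 CPM in the controls and 12.7, 15.2 and 13.4 CPM after MK5 siRNA, a change of −1.15 ± 0.15 (edgeR adjusted p = 0.00133). ZWINT (ENSG00000122952), the partner of KNL1 that helps bring the checkpoint complex RZZ to the kinetochore, was at 79.3, 86.6 and 93.1 CPM in the controls and 19.01, 34.4 and 35.9 CPM after MK5 siRNA. Here control replicate 1 was the lowest control, and the change was −1.53 ± 0.24 (edgeR adjusted p = 0.00274).

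Levels per length of all annotated exons put these complexes side by side. That length, 9794 bases in CENPP, is not the length of the transcript made in these cells. Ranks between genes therefore also depend on the gene models. Dividing CPM by the length of all exons in kilobases, DSN1 was at 9.76 ± 1.203 CPM per kb (SD, n = 3) in the controls and 9.67 ± 0.779 after MK5 siRNA, and MIS12 at 6.68 ± 2.59 and 5.71 ± 0.307. SPC24 went from 12.9 ± 4.51 to 2.93 ± 0.5304 and SPC25 from 13.1 ± 2.55 to 3.07 ± 1.31 CPM per kb. In the controls the SDs of DSN1 overlapped those of SPC24 and SPC25, and after MK5 siRNA DSN1 lay above both with no overlap of the SDs. Across all 37 members DSN1 moved from the 22nd to the 6th highest level per kb. CDC20 and BUB3 were the highest in both groups, at 121 ± 74.3 and 52.4 ± 23.1 in the controls, whose SDs overlap, and at 21.6 ± 3.14 and 26.8 ± 0.886 after MK5 siRNA. CENPW (36.6 ± 5.898) and ZWINT (36.3 ± 2.898) followed in the controls and differed by less than their SDs. CENPP was the lowest, at 0.459 ± 0.0363 and 0.196 ± 0.0663. The median member was at 12.1 CPM per kb in the controls and 4.40 after MK5 siRNA.

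**Figure D3:**
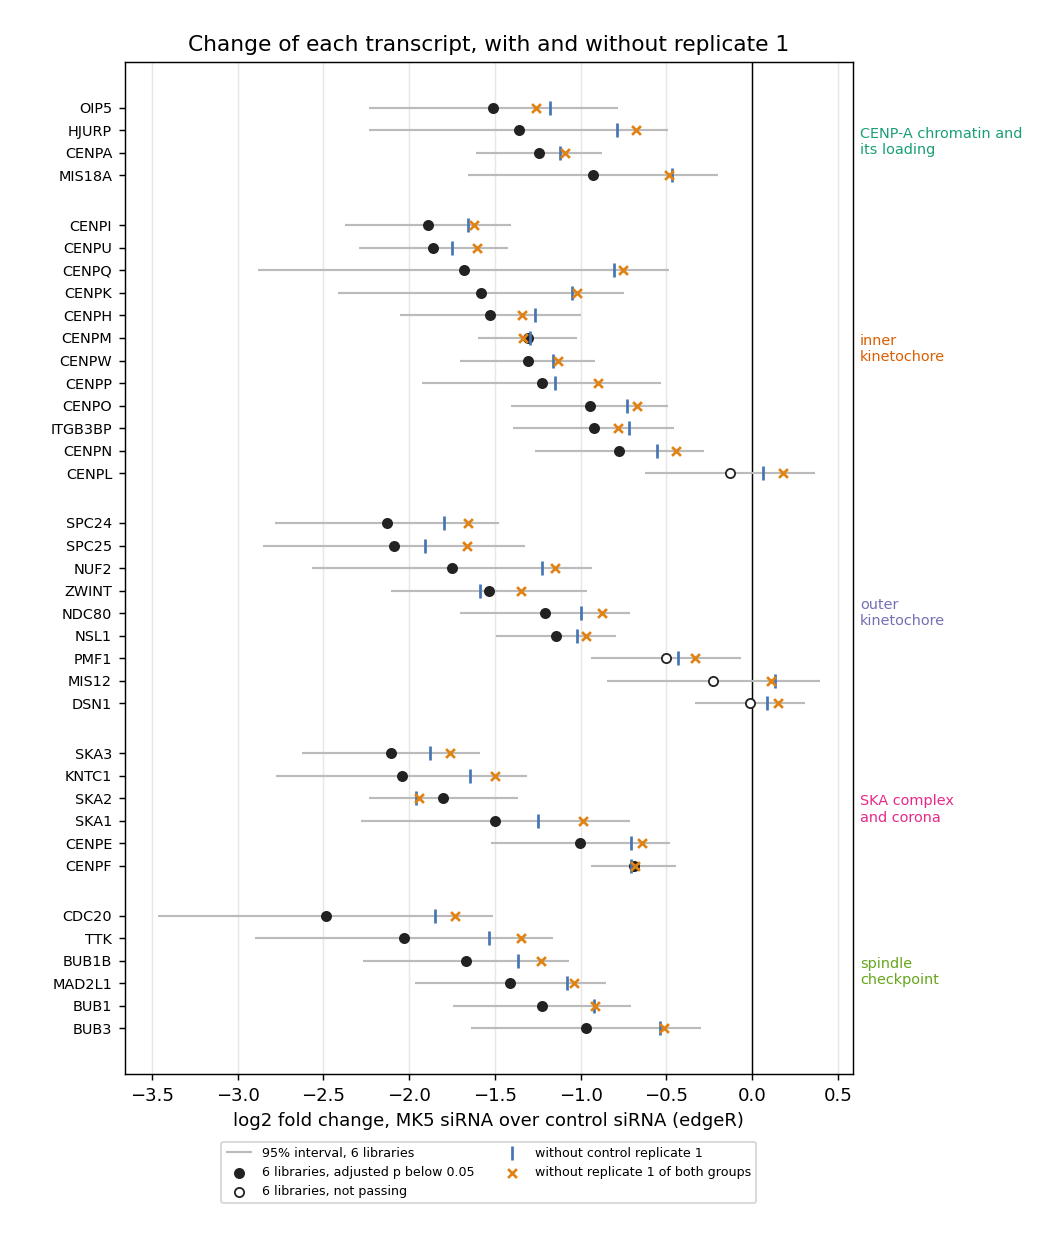
Fitted log2 fold change of MK5 siRNA over control for each member (edgeR), with 95% intervals as grey lines, filled circles for genes with adjusted p below 0.05 and open circles for the others. Blue ticks give the change without control replicate 1 and orange crosses that without replicate 1 of both groups; most lie nearer to 0 than the circles, and those of CENPL, MIS12 and DSN1 lie on the other side of 0.

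All 6 genes of the SKA complex and of the fibrous corona fell, with a median of −1.65. The SKA complex tracks the ends of microtubules together with NDC80. SKA3 (ENSG00000165480) was at 45.02, 28.5 and 31.4 CPM in the controls and 6.71, 8.69 and 8.92 CPM after MK5 siRNA, a change of −2.11 ± 0.22 (edgeR adjusted p = 0.0006496). SKA2 (ENSG00000182628) was at 50.9, 78.2 and 72.5 CPM in the controls and 18.9, 17.9 and 21.1 CPM after MK5 siRNA, a change of −1.80 ± 0.18 (edgeR adjusted p = 0.000595). SKA2 was the member in which control replicate 1 lay farthest below the other controls, and its change was larger without it, at −1.96. SKA1 changed by −1.50 ± 0.33 (edgeR adjusted p = 0.0102) from 23.9, 14.2 and 16.6 CPM in the controls to 3.83, 6.99 and 8.52 CPM. In SKA1, MK5 siRNA replicate 1 was at 0.494 times the mean of the other MK5 siRNA libraries, the lowest such ratio of any member.

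KNTC1 (ENSG00000184445) encodes ROD of the RZZ complex, which holds checkpoint proteins and dynein at unattached kinetochores. It was at 94.02, 52.2 and 44.4 CPM in the controls and 12.2, 17.1 and 16.9 CPM after MK5 siRNA, a change of −2.04 ± 0.31 (edgeR adjusted p = 0.00231). CENPE, a kinesin motor that carries chromosomes to the spindle equator, was at 109, 68.01 and 62.1 CPM in the controls and 36.2, 41.5 and 41.6 CPM after MK5 siRNA, a change of −1.0 ± 0.22 (edgeR adjusted p = 0.00999). CENPF (ENSG00000117724), a very large coiled-coil protein of the corona, was at 189.6, 209 and 189 CPM in the controls and 117, 115 and 132 CPM after MK5 siRNA. The control libraries of CENPF agreed closely, and its change of −0.69 ± 0.11 was the smallest of the 33 that passed (edgeR adjusted p = 0.00239). Without control replicate 1 it was −0.71, and MIS18A, BUB3, CENPN and, by little, CENPE (−0.70) were then nearer to 0.

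All 6 checkpoint genes fell, with a median of −1.54. CDC20 (ENSG00000117399), the activator of the anaphase-promoting complex that the checkpoint holds back, had the most negative fit of the members, −2.49 ± 0.41 (edgeR adjusted p = 0.00333). It was at 421, 151 and 168 CPM in the controls and 36.6, 48.1 and 47.2 CPM after MK5 siRNA. Control replicate 1 was 2.65 times the mean of the other controls, and the change was −1.85 without it and −1.74 without replicate 1 of both groups. The rank went with that library: SKA2, SPC25 and SKA3 had larger falls without it (−1.96, −1.91 and −1.88), and SKA2 and SKA3 without replicate 1 of both groups (−1.94 and −1.76). TTK (ENSG00000112742), the kinase MPS1 that starts checkpoint signalling, was at 84.1, 38.2 and 37.6 CPM in the controls and 9.41, 15.2 and 14.5 CPM after MK5 siRNA, a change of −2.03 ± 0.37 (edgeR adjusted p = 0.00464).

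The inhibitor of CDC20 is the mitotic checkpoint complex of MAD2, BUBR1 and BUB3. BUB1B, which encodes BUBR1, was at 115, 70.6 and 66.8 CPM in the controls and 21.1, 27.5 and 30.9 CPM after MK5 siRNA, a change of −1.67 ± 0.25 (edgeR adjusted p = 0.00234). In the gene models 10.2% of its exon bases belong to the readthrough gene BUB1B-PAK6 as well. MAD2L1, which encodes MAD2, changed by −1.41 ± 0.24 from 105, 59.4 and 60.1 CPM to 26.3, 29.2 and 28.9 CPM (edgeR adjusted p = 0.00341). BUB1, the kinase that recruits BUBR1 and shugoshin, changed by −1.23 ± 0.22 from 186, 109 and 111 CPM to 57.4, 56.1 and 59.99 CPM (edgeR adjusted p = 0.004405). In these 3 genes control replicate 1 was the highest library and no MK5 siRNA library reached the lowest control.

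BUB3 (ENSG00000154473), a WD-repeat protein that anchors BUB1 and BUBR1, was the checkpoint gene with the smallest change. It was at 656, 317 and 331 CPM in the controls and 214, 227 and 226 CPM after MK5 siRNA. The MK5 siRNA libraries differed little, control replicates 2 and 3 lay above them, and control replicate 1 was 2.02 times the mean of the other controls. The change was −0.97 ± 0.28 (edgeR adjusted p = 0.0279) and −0.54 without control replicate 1. It did not pass without any single one of the MK5 siRNA libraries (edgeR adjusted p from 0.0828 to 0.0945) or with the replicate block (0.0502).

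Genes of the same pathway outside the 37 were taken in 3 lists, and differences between the lists and the members were not tested. Of 23 other kinetochore and checkpoint genes, 14 fell, 1 rose and 8 did not pass, with a median of −1.05. The largest falls were in CDCA8 (−2.25 ± 0.31), which encodes borealin, and AURKB (−1.64 ± 0.30), the kinase of the same chromosomal passenger complex (edgeR adjusted p = 0.00169 and 0.00486). The rise was in BOD1 (0.57 ± 0.09, edgeR adjusted p = 0.003195), a regulator of phosphatase activity at kinetochores. Without control replicate 1, where 32.1% of all genes tested fell, the same numbers passed, 14 and 1, but the median was −0.50. ZWILCH (−1.48) and CENPX (−1.38) then fell more than AURKB (−1.20), while CDCA8 (−1.83) still fell most. With the replicate block 11 fell and 1 rose. KNL1, the scaffold that completes the outer kinetochore with the NDC80 and MIS12 complexes, was named after its values were seen, and changed by −1.35 ± 0.23 (edgeR adjusted p = 0.00381).

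Of 19 genes of the anaphase-promoting complex and its targets, 6 fell, 2 rose and 11 did not pass, with a median of −0.05. The falls were 31.6% and the rises 10.5% of the list, beside 23.7% and 22.5% of all genes tested. The largest falls were in ESPL1 (−1.82 ± 0.26), separase, and UBE2C (−1.30 ± 0.39), the E2 enzyme of the complex (edgeR adjusted p = 0.00188 and 0.0308). The rises were in the core subunits CDC27 (0.46 ± 0.10) and ANAPC2 (0.44 ± 0.12), with edgeR adjusted p of 0.00834 and 0.0192. UBE2C was at 121, 44.4 and 49.6 CPM in the controls and 24.2, 30.4 and 32.7 CPM after MK5 siRNA. Its change was −0.69 without control replicate 1, less than that of ANAPC15 (−1.11) and ANAPC7 (−0.71), and it did not pass with the replicate block (edgeR adjusted p = 0.0808) or without any single MK5 siRNA library (edgeR adjusted p from 0.0737 to 0.111). ANAPC2 did not pass without control replicate 2 or 3 or MK5 siRNA replicate 2 or 3 (edgeR adjusted p from 0.0689 to 0.0873). Without control replicate 1, 6 of the 19 fell and 6 rose, near the share of all genes. Of 13774 genes tested in that setting, 4419 (32.1%) fell and 4455 rose. The summed level of these 19 genes was 89.4% of the control mean after MK5 siRNA, and 100.4% of the mean of control replicates 2 and 3. That of the 37 members was 40.9% and 50.1%.

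Of 24 regulators of cell cycle transcription, 12 fell, 1 rose and 11 did not pass, with a median of −0.47. E2F2 (−2.44 ± 0.35), an activator of S phase genes, and FOXM1 (−2.19 ± 0.29), which with the MuvB core activates genes of G2 and M phase, fell most (edgeR adjusted p = 0.00202 and 0.00142). LIN37 (0.86 ± 0.26, edgeR adjusted p = 0.03195), a MuvB subunit at about 1 CPM in the controls, rose. LIN37 passed without control replicate 1 but not without any other single library (edgeR adjusted p from 0.0513 to 0.116), nor with no filter on low counts (0.0549). Without control replicate 1, 12 of the 24 fell and 5 rose, while 32.1% of all genes tested fell. E2F8 (−2.34) and MYBL2 (−2.03) then joined E2F2 (−2.18) ahead of FOXM1 (−1.99).

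**Figure D4:**
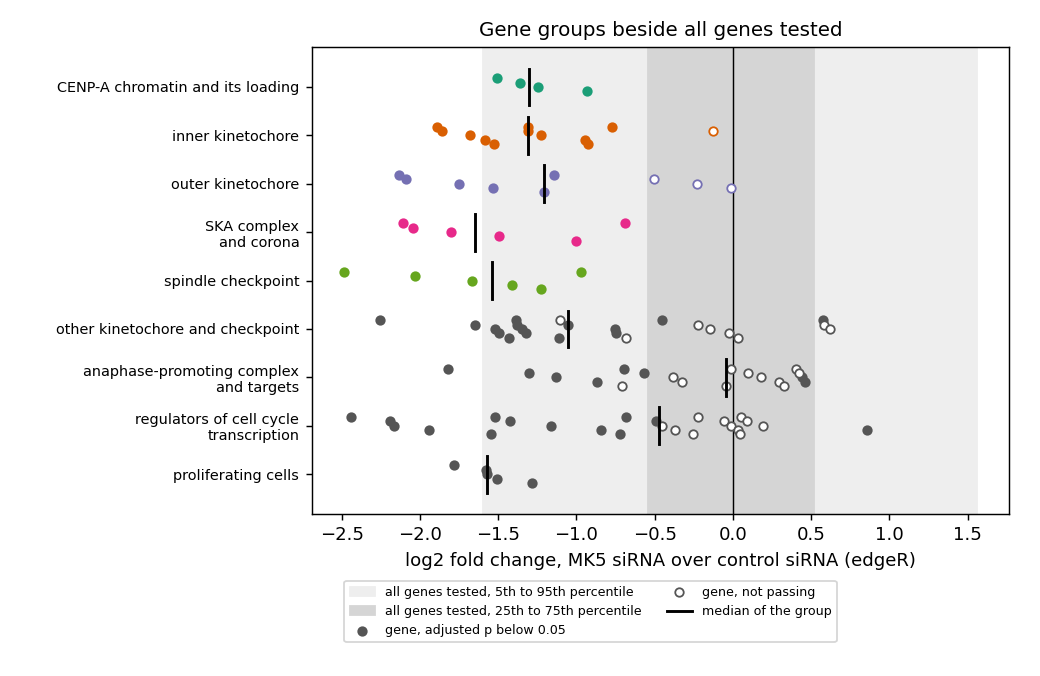
Fitted log2 fold change of every measured gene in the 5 role groups of the members (coloured) and in 4 other gene lists (grey), filled where adjusted p is below 0.05, with the group's median as a black bar. The shaded bands hold the central 50% and 90% of all genes tested; the medians of the 5 role groups lie between −1.65 and −1.21, and that of the anaphase-promoting complex list at −0.05.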

How the data were processed

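The deposited table holds whole-number counts per gene for 6 libraries, although its name speaks of CPM. Per the submitters' processing notes, FastQC, Trimmomatic 0.36, TopHat2 2.1.1, HTSeq 0.9.1 and GRCh37 were used, with no order or settings; the sources used here give no annotation release or strand setting. At mean counts of 2 to 5, replicates 2 and 3 varied by 0.950 (control) and 1.01 (MK5 siRNA) times the Poisson variance, as sampled reads do.

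The members, role groups, gene lists and the rule for genes given library by library were chosen with earlier results of these data known. That rule took, per role group, the largest and smallest fall and every gene that did not pass or overlapped, with further members where a complex needed them, and for other lists up to 2 passing falls and 2 rises.

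In R 4.3.3, edgeR 4.0.16 (filterByExpr with least count 10 and least total 15, TMM, quasi-likelihood test without a block) compared the groups over 13431 genes, two-sided, with Benjamini-Hochberg adjustment and a threshold of 0.05. The common biological coefficient of variation was 21.2%. The standard error is the log2 fold change divided by the square root of F. The code was tested on simulated counts with less spread between libraries than these data and no library set apart. That checks the code and not how the test behaves with these libraries. The groups share replicate numbers. Across genes, the deviations of same-numbered libraries from their group means had correlations of 0.258, 0.206 and 0.248. By a rule of over 0.1 in every pair, the numbers were taken as pairs for the pair changes and the replicate block only. The main test does not use the pairing, and the labels name no shared batch. Control replicate 2 also correlated with MK5 siRNA replicate 3 (0.151) and control replicate 3 with MK5 siRNA replicate 2 (0.182). Both are over 0.1, so the rule does not tell pairs 2 and 3 apart. Alternatives were DESeq2 1.42.0, its size factors, library totals, no filter, the replicate block, and leaving out libraries. Exon lengths and overlaps came from GENCODE 29 (GRCh38), matched by identifier for all 37 members, and promoters from RefSeq (GRCh38.p14), matched by symbol. Neither is the submitters' build.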

Additional observations from a re-analysis of the deposited data

How the results depend on the processing

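The members' counts were stable: 28 to 34 fell and 0 rose under each of the 12 alternatives, and their median log2 fold change lay between −1.55 (without control replicate 2) and −1.02 (without replicate 1 of both groups). Of 444 recomputed member values, 414 kept their direction and side of the threshold, 20 no longer passed (in HJURP, MIS18A, CENPN, CENPQ and BUB3), 2 newly passed (both PMF1) and 8 turned sign, none of which passed. The turns were CENPL at 0.066 without control replicate 1 and 0.18 without replicate 1 of both groups, MIS12 at 0.14 and 0.11 under the same settings, and DSN1 at 0.088 and 0.15, also at 0.05 without MK5 siRNA replicate 1 and 0.10 with library totals. Leaving out single libraries gave −0.26 to 0.066 for CENPL, −0.45 to 0.14 for MIS12 and −0.12 to 0.088 for DSN1. With the replicate block 28 members fell, and over all genes 3205 fell and 3154 rose, against 3186 and 3020 without it. Of all genes, 5177 fell and 5195 rose without replicate 1 of both groups, and between 2103 (without MK5 siRNA replicate 2) and 4419 (without control replicate 1) fell when single libraries were left out. Library totals in place of TMM moved the median of all genes by 0.10 on the log2 scale, and 32 members fell. The alternatives by role group and list and for genes of the lists were added after seeing the data. With 3 libraries a group, of which replicate 1 differs from the others, sizes are less certain than directions; the cause of that difference was not tested. The largest standard errors, 0.51 in CENPQ and 0.41 in CDC20, belong to genes with a high control replicate 1.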
